A study of Rattus norvegicus with 40 samples.

Results

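Chemokines and their receptors were followed in the liver of rats given diethylnitrosamine (DEN), a carcinogen that is activated in hepatocytes and causes liver cancer. Every counted gene with a symbol of the form Ccl, Cxcl, Ccr, Cxcr or Ackr plus a number, or named Cx3cl1, Xcl1 or Cx3cr1, was taken, which gave 52 genes (34 ligands and 18 receptors) of 17337. Male Fischer 344 rats that were 7 weeks old at the start received DEN by intraperitoneal injection at 50 mg/kg once a week. They were killed after 8 weeks, after 14 weeks, or at 20 weeks, when the last injection lay 6 weeks back. Non-tumor (NT) liver was sampled at each time, and 2 tumor nodules per rat at 14 and 20 weeks. Untreated rats of the same age gave the no DEN groups at 8, 14 and 20 weeks. Each of the 8 groups held 4 rats, and RNA-seq of 40 libraries from 24 rats was analysed.

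Chemokines are small secreted proteins that guide leukocytes along a gradient by binding receptors coupled to G proteins. A pair of them, Cx3cl1 and Cxcl16, are made as membrane proteins and can hold cells as well as attract them. Atypical receptors such as Ackr2 and Ackr3 bind chemokines without this coupling and remove them. In the liver, hepatocytes, sinusoidal and biliary cells, stellate cells and resident macrophages all make chemokines, and the receptors are carried mostly by leukocytes.

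Between 20528515 and 160622633 read pairs were counted per library (median 30477421), and the largest library, NT liver of rat H26 at 20 weeks, held 4.08 times the pairs of the next. Levels are given as CPM, the pairs of a gene relative to its library total after scaling by trimmed means (TMM), and the value of a rat's tumors is the mean of its 2 nodules. A gene at 1 CPM has about 30 pairs at the median depth, which alone gives a counting error of 18.1%. Albumin, the main hepatocyte product, took 10.4% to 19.0% of the pairs. CPM are not corrected for gene length, so levels are compared between groups and never between genes. In pieces of whole tissue, more cells of a type and more RNA per cell cannot be told apart.

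Markers of several cell types moved with DEN, and their part in the results was not tested. The summed level of 8 T cell markers ran from 2.87 to 5.21 CPM in the 12 untreated rats and from 4.57 to 12.4 CPM in the DEN groups. The same ranges were 5.75 to 13.2 and 12.5 to 57.1 CPM for 8 neutrophil markers, and 171 to 301 and 239 to 402 CPM for 10 macrophage and monocyte markers. For 6 Kupffer cell markers the ranges were 257 to 841 and 271 to 800 CPM. Dendritic cell markers (6) ran from 4.81 to 7.84 and 7.05 to 17.2 CPM, B cell markers (6) from 0.859 to 2.71 and 1.24 to 4.31 CPM, and NK cell markers (7) from 8.01 to 17.3 and 8.93 to 22.7 CPM. Stellate cell and fibroblast markers (9) ran from 182 to 269 CPM without DEN and from 262 to 518 CPM with it. Sinusoidal (5) and vascular (6) endothelial markers ran from 39.4 to 119 and 33.9 to 64.2 CPM without DEN, and from 124 to 187 and 66.7 to 103 CPM with it. Cholangiocyte markers (5) ran from 16.3 to 24.2 CPM without DEN and from 30.1 to 187 CPM with it. Hepatocyte markers (7) lay between 219097 and 262034 CPM without DEN and between 113565 and 237709 CPM with it. Each sum is weighted to its genes of highest CPM. In NT liver at 8 weeks Col3a1 averaged 319 of the 461 CPM of stellate cell and fibroblast markers. Pdgfrb fell there from 48.4 to 37.1 CPM, while the other counted ones averaged higher. Cd14 fell from 35.0 to 14.8 CPM, while the other macrophage and monocyte markers averaged higher. Apoa1, Ttr and Cyp2e1 averaged higher, and Alb, Cps1, Tat and Hnf4a lower. The neutrophil genes Mpo and Ltf averaged at most 0.0374 CPM in a group, and Col1a2, a collagen gene of stellate cells, was listed at 0 in every group, so a gene listed at 0 in these files need not be silent. Among the DEN rats, 4 have an F before their number (F09 and F10 at 8 weeks, F06 at 14 weeks, F03 at 20 weeks) and the others an H. What the letter stands for is not given in the sources used here, and no untreated rat has an F.

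The first question was which chemokine genes differed between livers of treated and untreated rats of the same age. A gene was called where the quasi-likelihood test of edgeR gave a Benjamini-Hochberg adjusted p of at most 0.05 over all genes tested and its log2 fold change was 0.5 or more in either direction. In NT liver at 8 weeks 27 of the 52 genes had enough counts to be tested, and 15 were higher and 1 lower than without DEN, where 16.5% of all genes tested were called higher and 5.21% lower. At 14 weeks 27 were tested, with 14 higher and 2 lower (22.8% and 9.85% of all genes). At 20 weeks 25 were tested, with 9 higher and 2 lower (14.3% and 3.82%), and these 11 calls became 7 without H16 or without H28 and 14 without H13. In nodules against no DEN, 13 of 29 tested were higher and 1 lower at 14 weeks (23.9% and 15.2% of all genes), and 13 of 30 were higher and 4 lower at 20 weeks (23.6% and 15.2%). The median log2 fold change of the tested members was 0.83, 0.75 and 0.85 in NT liver at 8, 14 and 20 weeks and 0.83 and 0.86 in nodules, while that of all genes lay between -0.01 and 0.02. Genes that are low in 1 group pass the count filter only where they are high in the other, so these shares describe the tested genes alone. In NT liver the stricter rule of a fold change of at least 2 and an adjusted p of at most 0.01 left 8 members at 8 weeks, 10 at 14 weeks and 4 at 20 weeks, where 7.91%, 15.2% and 5.22% of all genes passed it.

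Over these 5 comparisons 22 members were called at least once, 15 ligands and 7 receptors. The direction never turned: 18 were called higher only and 4 lower only (Cxcl12, Cxcl11, Cxcl14 and Ackr2). Nodules and NT liver of an age share their untreated rats, so the comparisons are not independent. Shares of all genes called at least once, in 1 direction only or in all 5 were not counted. Called higher in each of the 5 were Ccl2, Ccl21, Cx3cl1, Cxcl10, Cxcl16 and Ackr3, and called lower in each was Cxcl12. Without the rats numbered F the calls at 8 weeks of Ackr3, Ccl2 and Cxcl10 were lost (edgeR adjusted p of 0.0806, 0.125 and 0.0632), as was that of Cxcl10 in NT liver at 20 weeks (0.0575). Fewer treated rats were left there. The log2 fold changes at 8 weeks were then 1.02, 1.05 and 0.69, in place of 0.96, 1.24 and 0.60. That of Cxcl10 at 20 weeks was 0.91 with and without the F rats. Another 12 members were tested in some comparison and not called in these fits, of which Ccl7, Ccr7 and Cxcr2 were tested only for nodules against NT liver, and 18 had too few counts for any test.

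**Figure D1:**
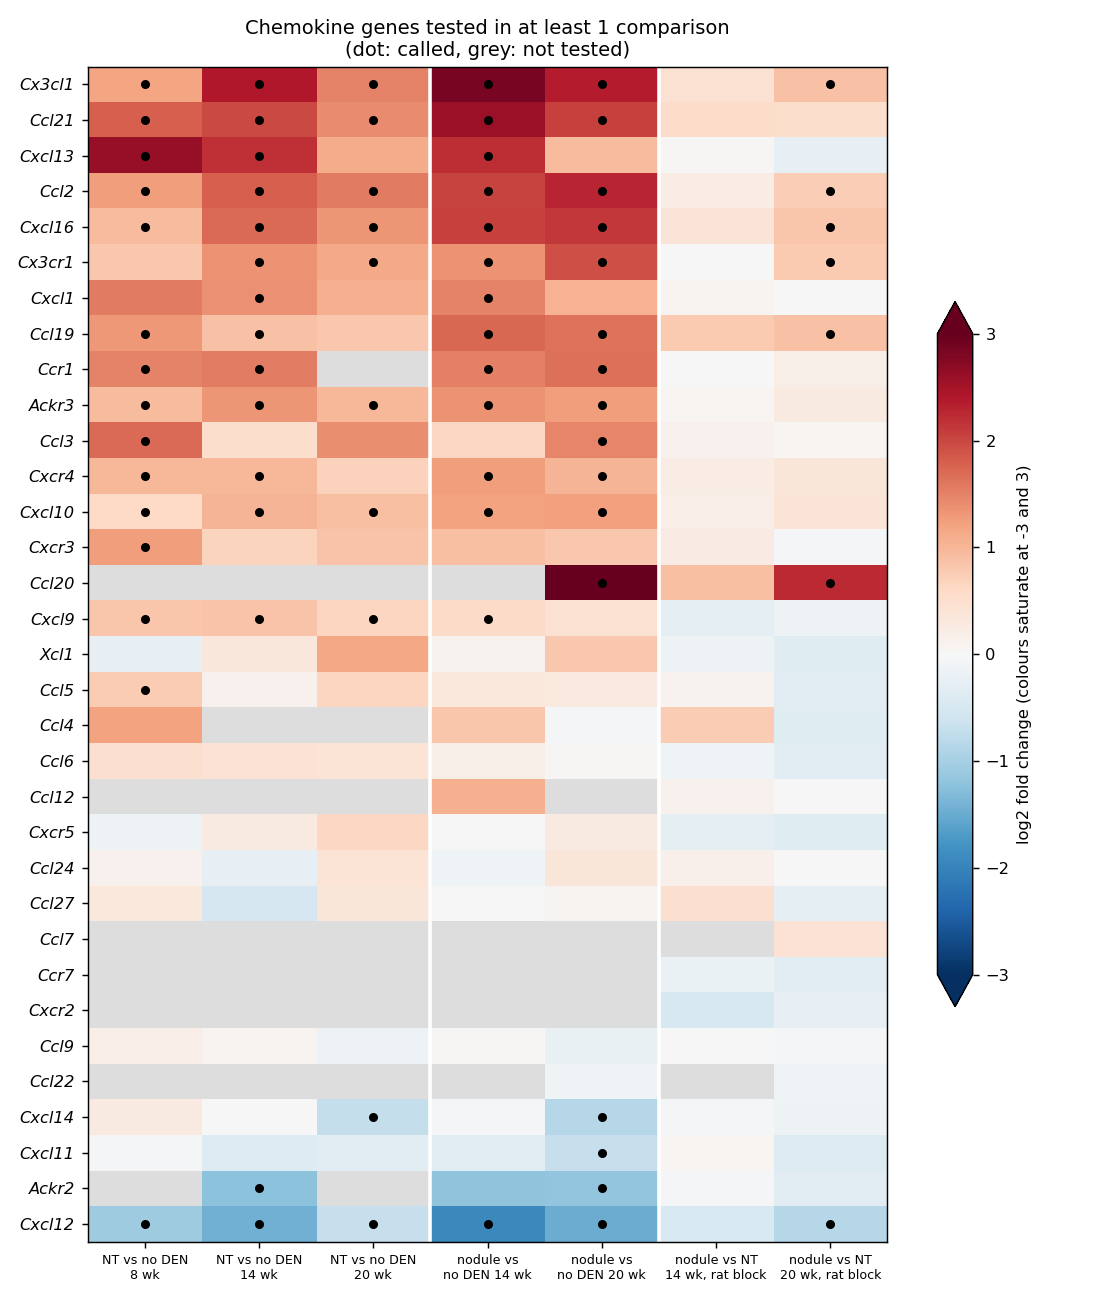
Log2 fold change (colour, red higher, blue lower) of 33 chemokine genes tested in at least 1 comparison, one row per gene and one column per comparison, with a dot where the gene was called and grey where it was not tested. Most dots lie in the 5 columns against no DEN, Cxcl12 is blue with a dot in all 5 of them, and only the last column, nodules against NT liver at 20 weeks with the rat as block, holds calls between tumor and NT liver.

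The clearest fall was that of Cxcl12, which binds Cxcr4 and Ackr3 and keeps stem cells and lymphocytes in place. The 4 untreated rats of 8 weeks had 379, 446, 503 and 387 CPM and the 4 DEN rats 215, 204, 213 and 192 CPM. At 14 weeks the untreated rats had 437 to 473 CPM, NT liver 216, 128, 152 and 173 CPM, and nodules 159, 105, 102 and 127 CPM. At 20 weeks the untreated rats had 349 to 435 CPM, NT liver 266, 279, 232 and 206 CPM, and nodules 161, 212, 117 and 90.4 CPM. No DEN rat reached the lowest untreated rat of its age at any time. Cxcl12 fell by 1.07 on the log2 scale at 8 weeks (SE 0.11, edgeR adjusted p = 6.53e-05), by 1.45 at 14 weeks (SE 0.14, adjusted p = 2.16e-05) and by 0.70 at 20 weeks (SE 0.11, adjusted p = 0.00129) in NT liver. In nodules against no DEN it fell by 1.93 (SE 0.16) at 14 weeks and by 1.49 (SE 0.25) at 20 weeks, with adjusted p of 2.98e-05 and 0.000959. Of the 16 nodules, 16 had less Cxcl12 than the NT liver of the same rat.

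Both receptors of Cxcl12 went the other way. Cxcr4, which signals, averaged 1.94 ± 0.40 CPM in untreated and 3.94 ± 0.82 CPM in treated rats of 8 weeks (SD, n = 4), with 1.46 to 2.38 CPM in untreated and 2.87 to 4.64 CPM in treated rats. It rose by 1.01 (SE 0.21, edgeR adjusted p = 0.00373) at 8 weeks and by 1.00 (SE 0.21, adjusted p = 0.00198) at 14 weeks in NT liver. In nodules it rose by 1.26 (SE 0.32) and 1.02 (SE 0.26) at 14 and 20 weeks, with adjusted p of 0.0104 and 0.0083. In NT liver at 20 weeks its log2 fold change of 0.69 (SE 0.30) was not called (edgeR adjusted p = 0.11). Ackr3, an atypical receptor that takes up Cxcl12, stood at 2.39 ± 0.44 CPM without DEN at 14 weeks, 5.95 ± 1.14 CPM in NT liver and 6.18 ± 0.88 CPM in nodules, and all treated samples lay above the untreated ones. It rose by 1.33 (SE 0.18, edgeR adjusted p = 0.000146) in NT liver at 14 weeks and by 1.00 (SE 0.19, adjusted p = 0.0037) at 20 weeks. At 8 weeks it rose by 0.96 (SE 0.28, adjusted p = 0.0215), with 1 untreated rat, H08, among the treated ones at 5.46 CPM. That call was lost without rat H06, H07 or H18, with adjusted p between 0.053 and 0.0646 and log2 fold changes of 0.82 to 0.93.

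Cxcl14, a chemokine of epithelia, was lower at 20 weeks. NT liver had 5.61, 5.77, 4.94 and 5.03 CPM and nodules 6.05, 5.50, 3.90 and 4.62 CPM, against 7.27, 9.05, 8.74 and 9.58 CPM without DEN. The fall was 0.71 (SE 0.12, edgeR adjusted p = 0.00281) in NT liver and 0.86 (SE 0.16, adjusted p = 0.00142) in nodules. The untreated level itself was 3.74 ± 1.29 CPM at 8 weeks, 4.93 ± 0.90 CPM at 14 weeks and 8.66 ± 0.99 CPM at 20 weeks (SD, n = 4 each). At 8 and 14 weeks Cxcl14 was not called in NT liver, with log2 fold changes of 0.27 and -0.02.

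**Figure D2:**
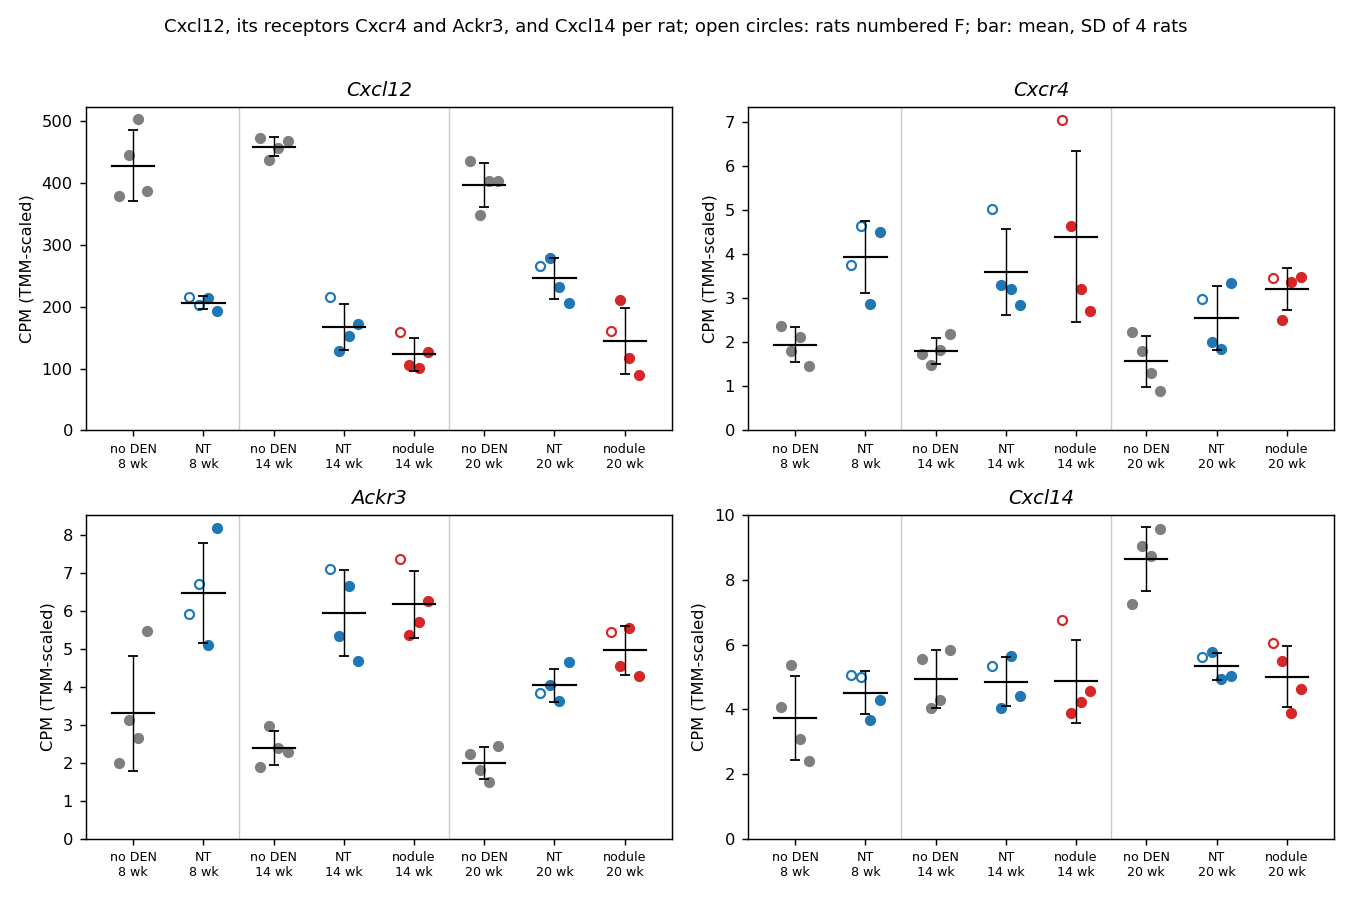
CPM of Cxcl12, Cxcr4, Ackr3 and Cxcl14 in each rat (circles) of the 8 groups, with the mean and SD of 4 rats as bars and rats numbered F as open circles. Cxcl12 of every DEN rat lies below every untreated rat of its age, while Cxcr4 and Ackr3 average higher with DEN at all 3 ages, and Cxcl14 is highest in untreated rats at 20 weeks.

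The bases just upstream of the start of Cxcl12 are shown with those of Cxcl16, the chemokine whose rise had the smallest adjusted p. For 40 of the 52 members RefSeq (build GRCr8, not the build of the counts) gave a promoter, and the 250 bases before the start were read. A motif like the binding site of NF-κB (GGGANNNNCC), one like that of interferon regulatory factors (GAAANNGAAA) and one like that of STAT factors (TTCNNNGAA) were searched on both strands. Capitals mark matches, and neither of these promoters holds one.
Cxcl12 (chr4:152060531-152060780, plus strand): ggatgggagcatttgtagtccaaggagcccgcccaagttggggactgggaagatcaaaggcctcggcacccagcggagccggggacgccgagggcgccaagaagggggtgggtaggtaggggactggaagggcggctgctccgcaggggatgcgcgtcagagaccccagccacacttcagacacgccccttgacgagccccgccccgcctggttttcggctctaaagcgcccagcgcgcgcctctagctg
Cxcl16 (chr10:55669951-55670200, minus strand): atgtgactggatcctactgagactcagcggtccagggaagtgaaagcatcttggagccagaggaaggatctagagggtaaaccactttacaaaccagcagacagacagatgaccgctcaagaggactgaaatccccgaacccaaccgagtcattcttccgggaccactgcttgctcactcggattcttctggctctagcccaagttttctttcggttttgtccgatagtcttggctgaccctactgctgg
Of 33469 rat promoters of the same length, 16.4% hold the first motif, 3.41% the second and 7.67% the third. Among the 40 members 16 held the first, 2 the second and 4 the third. A match describes letters only and does not show a binding site.

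The membrane-bound chemokines Cx3cl1 (fractalkine) and Cxcl16 rose at all 3 times. Cx3cl1 had 1.04, 0.971, 1.38 and 1.25 CPM in the untreated rats of 8 weeks and 2.72, 3.75, 1.97 and 2.22 CPM in NT liver. At 14 weeks it had 0.754, 0.619, 1.13 and 0.514 CPM without DEN, 4.51, 4.81, 3.84 and 2.72 CPM in NT liver and 6.42, 6.56, 5.76 and 3.51 CPM in nodules. At 20 weeks the untreated rats had 0.768 to 1.29 CPM, NT liver 2.45, 1.88, 2.35 and 3.99 CPM, and nodules 6.70, 3.30, 4.81 and 4.89 CPM. Treated and untreated rats never overlapped. The rise in NT liver was 1.18 (SE 0.24, edgeR adjusted p = 0.00335), 2.40 (SE 0.26, adjusted p = 4.33e-05) and 1.48 (SE 0.29, adjusted p = 0.00459) on the log2 scale at 8, 14 and 20 weeks. In nodules it was 2.84 (SE 0.30) at 14 weeks and 2.36 (SE 0.30) at 20 weeks, with adjusted p of 0.000102 and 0.000217.

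Cxcl16 also acts as a scavenger receptor for oxidized lipids. It stood at 5.87 ± 0.83, 4.90 ± 0.44 and 5.0 ± 0.51 CPM without DEN at 8, 14 and 20 weeks (SD, n = 4 each), and at 11.4 ± 1.6, 15.9 ± 2.5 and 12.5 ± 3.3 CPM in NT liver. Nodules had 22.2, 22.8, 19.1 and 19.2 CPM at 14 weeks and 22.1, 16, 25.5 and 25.2 CPM at 20 weeks. In NT liver it rose by 0.95 (SE 0.14, edgeR adjusted p = 0.000591), 1.71 (SE 0.12, adjusted p = 4.94e-06) and 1.32 (SE 0.19, adjusted p = 0.00111). In nodules it rose by 2.05 (SE 0.11) and 2.12 (SE 0.17), with adjusted p of 5.13e-06 and 2.4e-05, and the lowest treated rat lay above the highest untreated one in each comparison. Cxcr6, the receptor of Cxcl16, had at most 25 counts in a library and could not be tested.

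Cx3cr1, the receptor of Cx3cl1 on monocytes and lymphocytes, was lower in counts (3 to 94 per library). At 14 weeks its means were 0.360 ± 0.234 CPM without DEN, 0.913 ± 0.144 CPM in NT liver and 0.940 ± 0.333 CPM in nodules (SD, n = 4). It rose by 1.34 (SE 0.37, edgeR adjusted p = 0.0104) in NT liver at 14 weeks, by 1.14 (SE 0.34, adjusted p = 0.0299) at 20 weeks, and by 1.35 (SE 0.44, adjusted p = 0.0285) and 1.93 (SE 0.32, adjusted p = 0.000944) in nodules. At 8 weeks the groups overlapped and it was not called (log2 fold change 0.82, SE 0.40, adjusted p = 0.13). The NT call at 20 weeks was lost without any 1 of F03, H14, H15, H16, H26 and H28 (adjusted p 0.0527 to 0.0986) and by DESeq2 (adjusted p = 0.0512), and that of nodules at 14 weeks without H09, H10, H12 or H21 (adjusted p 0.0707 to 0.0818). Without F09 Cx3cr1 was called at 8 weeks too, with a log2 fold change of 1.06 (adjusted p = 0.048).

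**Figure D3:**
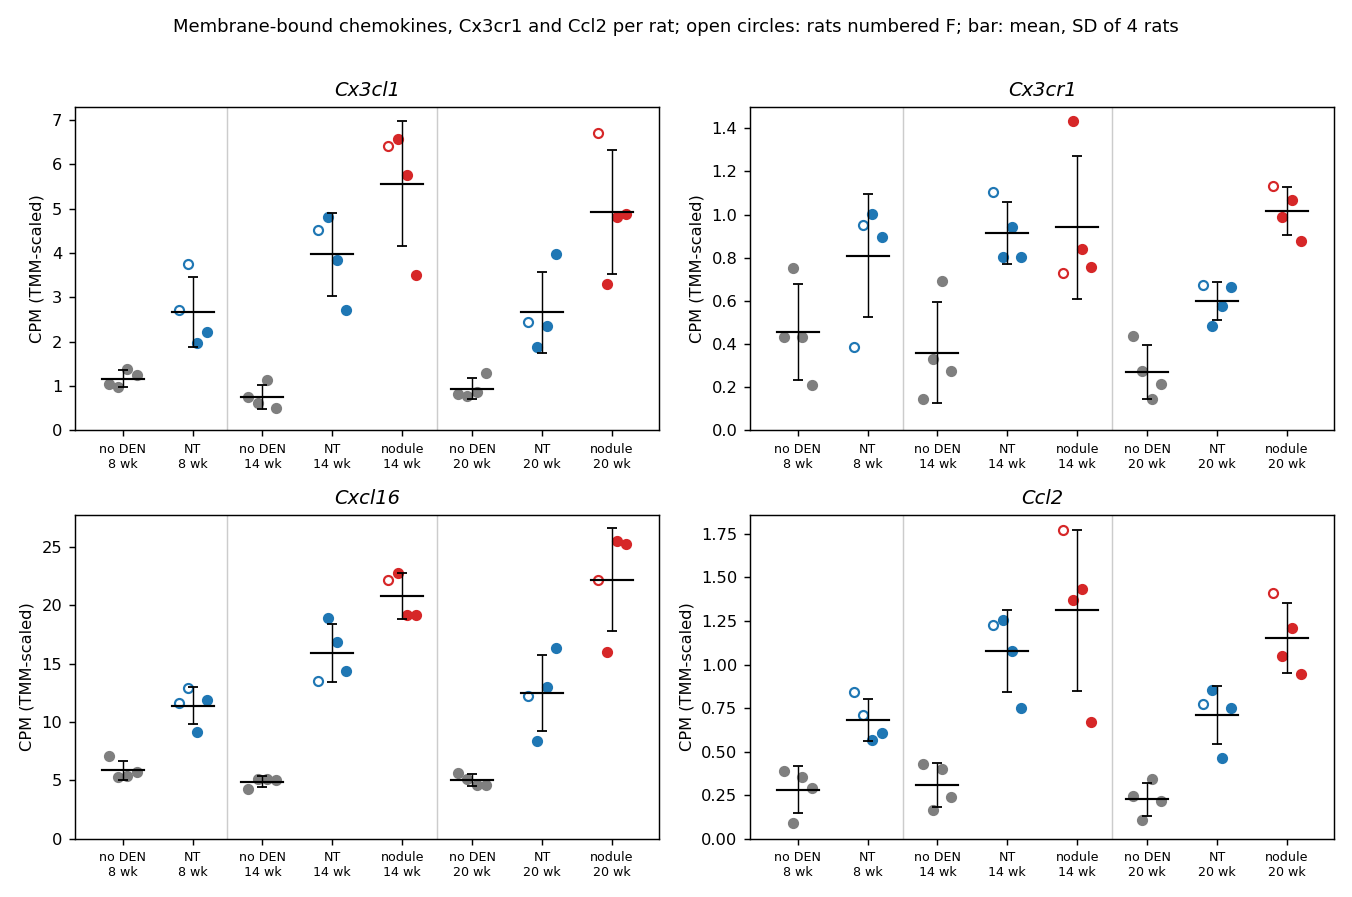
CPM of Cx3cl1, Cx3cr1, Cxcl16 and Ccl2 in each rat (circles) of the 8 groups, with the mean and SD of 4 rats as bars and rats numbered F as open circles. Cx3cl1 and Cxcl16 of treated rats lie above all untreated rats of the same age, with nodules averaging above NT liver at 14 and 20 weeks.

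Whether the effect of DEN on NT liver changed with time was tested as an interaction, for which a call needed an adjusted p of at most 0.05 and no minimum fold change. Between 8 and 14 weeks 2 of 30 tested members were called, both higher, where 8.96% of all genes tested were called in either direction. These were Cx3cl1, with a difference of log2 fold changes of 1.21 (SE 0.37, edgeR adjusted p = 0.0485), and Cxcl16, with 0.76 (SE 0.19, adjusted p = 0.0209). Without rat H21 neither was called, and without F06 Cxcl16 stayed and Ccl3, Ccl5 and Cxcl12 were called lower. Cx3cl1 lost its call with no count filter. It kept the call without F10, H11 or H23, and lost it without any other of the 16 rats, which left 1 member called, Cxcl16, except as given for H21 and F06. Between 14 and 20 weeks 0 of 29 members were called, with 0.738% of all genes called. At an unadjusted p of at most 0.05 there were 4 members, beside 1912 of 11245 genes, and DESeq2 called 3 (Ccl9, Cxcl12 and Cxcl14), beside 381 of 10858 genes. For Cxcl12 the difference of 0.75 (SE 0.18) towards a smaller fall at 20 weeks had an edgeR adjusted p of 0.0648. It was called without F06, H26 or H28, which left 1 member called in place of 0. For nodules against no DEN, 0 of 34 members were called between 14 and 20 weeks, where 0.0862% of all genes were called. At an unadjusted p of at most 0.05 there were 2, beside 378 of 11607 genes, and DESeq2 called 0 members and 29 of 14281 genes.

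The CC chemokines of inflammation rose in part. Ccl2, which draws monocytes through Ccr2 (not analysed here), was low, with 2 to 12 counts per untreated library. Its CPM were 0.389, 0.0883, 0.355 and 0.292 without DEN and 0.841, 0.707, 0.567 and 0.609 in NT liver at 8 weeks. At 14 weeks means were 0.309 ± 0.127, 1.08 ± 0.23 and 1.31 ± 0.46 CPM, and at 20 weeks 0.227 ± 0.095, 0.711 ± 0.169 and 1.15 ± 0.20 CPM, in no DEN liver, NT liver and nodules (SD, n = 4 each). No treated rat fell within the untreated range of its age. In NT liver Ccl2 rose by 1.24 (SE 0.36, edgeR adjusted p = 0.0204), 1.78 (SE 0.31, adjusted p = 0.00075) and 1.56 (SE 0.38, adjusted p = 0.0122), and in nodules by 2.02 (SE 0.40) and 2.29 (SE 0.33) with adjusted p of 0.00291 and 0.00046. The call at 8 weeks was lost without F09 (1.13, adjusted p = 0.0569). Its relatives Ccl7 and Ccl12 had group means of 0.0368 to 0.223 and 0.0473 to 0.301 CPM. Ccl7 did not pass the count filter against no DEN, and in nodules at 14 weeks it was called higher by DESeq2, with no filter and without any 1 of H09, H10, H11 and H12, as it was at 20 weeks without H16. Ccl12 was tested there in nodules of 14 weeks alone and was not called, with a log2 fold change of 1.05 (SE 0.41, adjusted p = 0.0581), and was called without H23 (1.2, adjusted p = 0.0484) and with all 8 groups in 1 fit (1.07, adjusted p = 0.0423), which called it at 20 weeks too.

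Ccl3, Ccl4 and Ccl5 are made by activated leukocytes and share receptors on monocytes and T cells. Ccl3 had 0.605, 0.486, 0.395 and 0.375 CPM in untreated and 1.26, 1.85, 1.70 and 1.25 CPM in treated rats at 8 weeks, and rose by 1.69 (SE 0.25, edgeR adjusted p = 0.000629). In nodules at 20 weeks it rose by 1.47 (SE 0.40, adjusted p = 0.0114). In NT liver at 20 weeks its log2 fold change of 1.39 (SE 0.50) had an adjusted p of 0.0576, and it was called there by DESeq2 (1.41, adjusted p = 0.0368), with all 8 groups in 1 fit (1.38, adjusted p = 0.0303) and without H25 or H26 (1.56 and 1.66). At 14 weeks it was not called, with F06 at 1.23 CPM in NT liver and the other 3 rats between 0.371 and 0.668 CPM. Ccl5 rose at 8 weeks from 5.29 ± 0.95 to 8.96 ± 1.94 CPM (SD, n = 4, log2 fold change 0.75, SE 0.17, adjusted p = 0.00738), with F09 and F10 at 9.86 and 11 CPM and H17 and H18 at 6.48 and 8.52 CPM. Without the F rats its value was 0.52 (adjusted p = 0.0705), and with all 8 groups in 1 fit it was 0.76 (adjusted p = 0.0739), neither of them called. Ccl4 was not called, with 1.2 (SE 0.48, adjusted p = 0.0726) at 8 weeks, or 1.70 without H08 (adjusted p = 0.031).

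Ccr1, a receptor of Ccl3 on monocytes and neutrophils, went from 0.0432, 0.221, 0.158 and 0.250 CPM to 0.517, 0.431, 0.467 and 0.537 CPM at 8 weeks. It had 1 to 7 counts per untreated library, and passed the count filter against no DEN only through the DEN groups, where it was high. It rose by 1.5 (SE 0.39, edgeR adjusted p = 0.0129) and 1.55 (SE 0.33, adjusted p = 0.00245) in NT liver at 8 and 14 weeks and by 1.51 (SE 0.31) and 1.65 (SE 0.42) in nodules, and did not pass the count filter in NT liver at 20 weeks, where it was called with no filter, with all 8 groups in 1 fit and without H13.

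Of the CC chemokines that barely moved, Ccl9, a myeloid attractant, had at least 9392 pairs in each library. Its group means lay between 482 ± 24.0 and 626 ± 34.8 CPM (SD, n = 4), and no log2 fold change against no DEN was larger in size than 0.21. Ccl6, another macrophage product, had means of 18.6 to 39.2 CPM and was not called, although at 8 weeks its edgeR adjusted p was 0.0425 with a log2 fold change of 0.48. Leaving out the untreated rat H05, at 39.4 CPM, raised it to 0.69. Ccl24, an attractant of eosinophils, stayed at means of 3.29 to 5.0 CPM. It was called at 20 weeks only without the untreated rat H13, at 6.05 CPM, by 0.70 in NT liver (adjusted p = 0.0406) and 0.69 in nodules.

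Cxcl9, Cxcl10 and Cxcl11 are induced by interferon and share the receptor Cxcr3 of activated T and NK cells. In the RefSeq annotation they are neighbours on chromosome 14, in the order Cxcl11, Cxcl10, Cxcl9, yet Cxcl11 was called only lower and the other two only higher. The upstream sequences of the 3 genes are given for that reason, with matches to the 3 motifs in capitals.
Cxcl11 (chr14:15973478-15973727, plus strand): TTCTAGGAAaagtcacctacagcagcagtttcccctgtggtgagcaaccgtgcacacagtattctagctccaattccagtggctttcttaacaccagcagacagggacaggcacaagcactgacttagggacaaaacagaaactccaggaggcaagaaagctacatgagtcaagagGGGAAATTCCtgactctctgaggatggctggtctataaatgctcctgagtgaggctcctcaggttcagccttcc
Cxcl10 (chr14:15988816-15989065, plus strand): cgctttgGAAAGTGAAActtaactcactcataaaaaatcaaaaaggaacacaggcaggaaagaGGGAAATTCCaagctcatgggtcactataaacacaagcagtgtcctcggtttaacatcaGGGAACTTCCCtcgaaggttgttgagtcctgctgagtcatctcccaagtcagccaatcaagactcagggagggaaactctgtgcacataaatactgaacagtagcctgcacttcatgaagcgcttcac
Cxcl9 (chr14:16006916-16007165, plus strand): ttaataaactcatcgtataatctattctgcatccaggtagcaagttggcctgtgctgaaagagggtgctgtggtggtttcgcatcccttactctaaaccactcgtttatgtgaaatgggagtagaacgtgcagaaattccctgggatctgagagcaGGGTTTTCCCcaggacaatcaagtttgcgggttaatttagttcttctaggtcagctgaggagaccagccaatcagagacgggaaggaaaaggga
Cxcl10 held 3 matches to the NF-κB motif, 2 of which overlap, and 1 to the interferon motif. Cxcl9 held 1 NF-κB match, and Cxcl11 held 1 NF-κB and 1 STAT match.

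Cxcl10 rose by 0.60 (SE 0.19, edgeR adjusted p = 0.0345), 1.02 (SE 0.19, adjusted p = 0.00111) and 0.91 (SE 0.27, adjusted p = 0.0314) in NT liver at 8, 14 and 20 weeks. In nodules it rose by 1.2 (SE 0.21) and 1.23 (SE 0.20), with adjusted p of 0.00145 and 0.000871. At 14 weeks the rats had 3.12, 4.08, 3.67 and 3.22 CPM without DEN, 7.79, 8.97, 7.05 and 4.63 CPM in NT liver and 9.67, 9.66, 8.44 and 5.32 CPM in nodules, so that the lowest treated value was above the highest untreated one. The call at 8 weeks was lost without F09, H06 or H18 (0.44 to 0.61) and with all 8 groups in 1 fit (0.61, adjusted p = 0.0568), and that at 20 weeks without F03, H13, H16, H26 or H28 (0.71 to 0.91). Cxcl9 rose by 0.83 (SE 0.20), 0.86 (SE 0.12) and 0.64 (SE 0.19) in NT liver, with adjusted p of 0.0109, 0.000152 and 0.0338. At 14 weeks it had 15.9, 14.7, 19.1 and 18.1 CPM without DEN, 30.5, 36.4, 29.8 and 25.4 CPM in NT liver and 18.6, 30.4, 27.2 and 26.4 CPM in nodules, so that only the nodules of F06 fell within the untreated range. In nodules it rose by 0.57 (SE 0.15, adjusted p = 0.0107) at 14 weeks, and its 0.45 (SE 0.15, adjusted p = 0.0242) at 20 weeks stayed under the fold threshold. The nodule call at 14 weeks was lost without H10 or H21 (0.49 and 0.50) or with nodule 1 alone (adjusted p = 0.0873), and the NT call at 20 weeks without F03, H13, H15, H16, H26 or H28 (0.48 to 0.65). Without H14 the nodules at 20 weeks were called (0.57).

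Cxcl11 fell by 0.69 (SE 0.20, edgeR adjusted p = 0.0145) in nodules at 20 weeks, from 12.1, 13.4, 14.3 and 14.3 CPM without DEN to 11.9, 9.81, 7.69 and 5.68 CPM. With nodule 1 of each rat alone this one call of Cxcl11 was lost (-0.53, adjusted p = 0.0975). In NT liver the adjusted p was under 0.05 at 14 weeks (0.0097) and 20 weeks (0.0377), but the log2 fold changes of -0.39 and -0.32 were smaller than the threshold. All 4 treated rats lay below all untreated ones at both times. In nodules at 14 weeks F06 had 15.2 CPM and the other 3 rats 8.16 to 9.70 CPM, and leaving F06 out gave a call of -0.53 in place of -0.31. Cxcr3 itself rose at 8 weeks, from 0.907, 0.927, 0.316 and 0.793 CPM to 1.75, 1.85, 1.44 and 1.97 CPM (log2 fold change 1.25, SE 0.28, adjusted p = 0.00581). In the other 4 comparisons its values of 0.66 to 0.90 had adjusted p between 0.0544 and 0.0945. It was called without H23 in NT liver at 14 weeks (0.87), without H26 in NT liver at 20 weeks (0.99), without F06 or H23 in nodules at 14 weeks (0.53 and 1.07), and without H25 in nodules at 20 weeks (0.95). With all rats kept it was called in nodules at 14 weeks by DESeq2 (adjusted p = 0.038), with all 8 groups in 1 fit (0.0194) and with nodule 2 alone (0.0102), and at 20 weeks in the last 2 of these settings (0.0471 and 0.0398).

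Ccl21 and Ccl19, chemokines of lymphoid tissue, guide T cells and dendritic cells through Ccr7. Ccl21 had 7.78, 4.81, 7.07 and 6.21 CPM without DEN and 31.6, 29.3, 14.8 and 15.3 CPM in NT liver at 8 weeks, the higher pair being F09 and F10. Nodules had 42.1, 21.7, 16.3 and 16.3 CPM at 14 weeks and 41.3, 13.6, 15.1 and 17 CPM at 20 weeks, and the highest rats were again F06 and F03. Untreated rats had 2.66 to 5.21 CPM at 14 weeks and 3.61 to 6.58 CPM at 20 weeks. The rise was 1.80 (SE 0.28, edgeR adjusted p = 0.00118), 1.99 (SE 0.24, adjusted p = 0.000145) and 1.42 (SE 0.30, adjusted p = 0.00877) in NT liver and 2.59 (SE 0.36) and 2.06 (SE 0.41) in nodules. Among rats numbered H alone the values were 1.23, 1.79, 1.2, 2.18 and 1.5, each of them called. Pairs that match several places were dropped in counting, so that genes with near-identical copies, as Ccl21 has in some rodents, may be undercounted.

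Ccl19 went from 1.29 ± 0.18 to 3.17 ± 0.87 CPM at 8 weeks and from 1.21 ± 0.40 to 2.21 ± 0.51 CPM at 14 weeks in NT liver (SD, n = 4). It rose by 1.29 (SE 0.22, edgeR adjusted p = 0.00147) and 0.89 (SE 0.26, adjusted p = 0.0131) there, and by 1.73 (SE 0.38, adjusted p = 0.00487) and 1.63 (SE 0.24, adjusted p = 0.000524) in nodules. In NT liver at 20 weeks it was not called (0.81, SE 0.31, adjusted p = 0.0721), and without the deep library of H26, which had 1.21 CPM beside 2.05 to 3.21 CPM in the other rats, it was (1.04). Ccr7 stayed at group means of 0.111 to 0.414 CPM and did not pass the count filter against no DEN. It was tested and called higher without H06 in NT liver at 8 weeks, and without H13 or with all 8 groups in 1 fit in NT liver and nodules at 20 weeks. Cxcl13, which draws B cells through Cxcr5, had 0.216, 0.309, 0.158 and 0.125 CPM without DEN and 1.49, 1.54, 0.734 and 1.25 CPM in NT liver at 8 weeks. It rose by 2.61 (SE 0.35, adjusted p = 0.000415) at 8 weeks, 2.18 (SE 0.35, adjusted p = 0.00044) at 14 weeks, and 2.21 (SE 0.37, adjusted p = 0.0011) in nodules at 14 weeks. Untreated libraries held 3 to 7 counts of Cxcl13 at 8 weeks and 4 to 7 at 14 weeks. It passed the count filter there only through the DEN groups, where it was high. At 20 weeks 1 untreated rat, H13, had 0.975 CPM and the other 3 had 0.11 to 0.258 CPM. The values of 1.11 in NT liver and 0.94 in nodules were not called with H13, and were 2.15 and 2.01 and called without it. Cxcr5 had group means of 0.780 to 1.22 CPM and was not called.

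**Figure D4:**
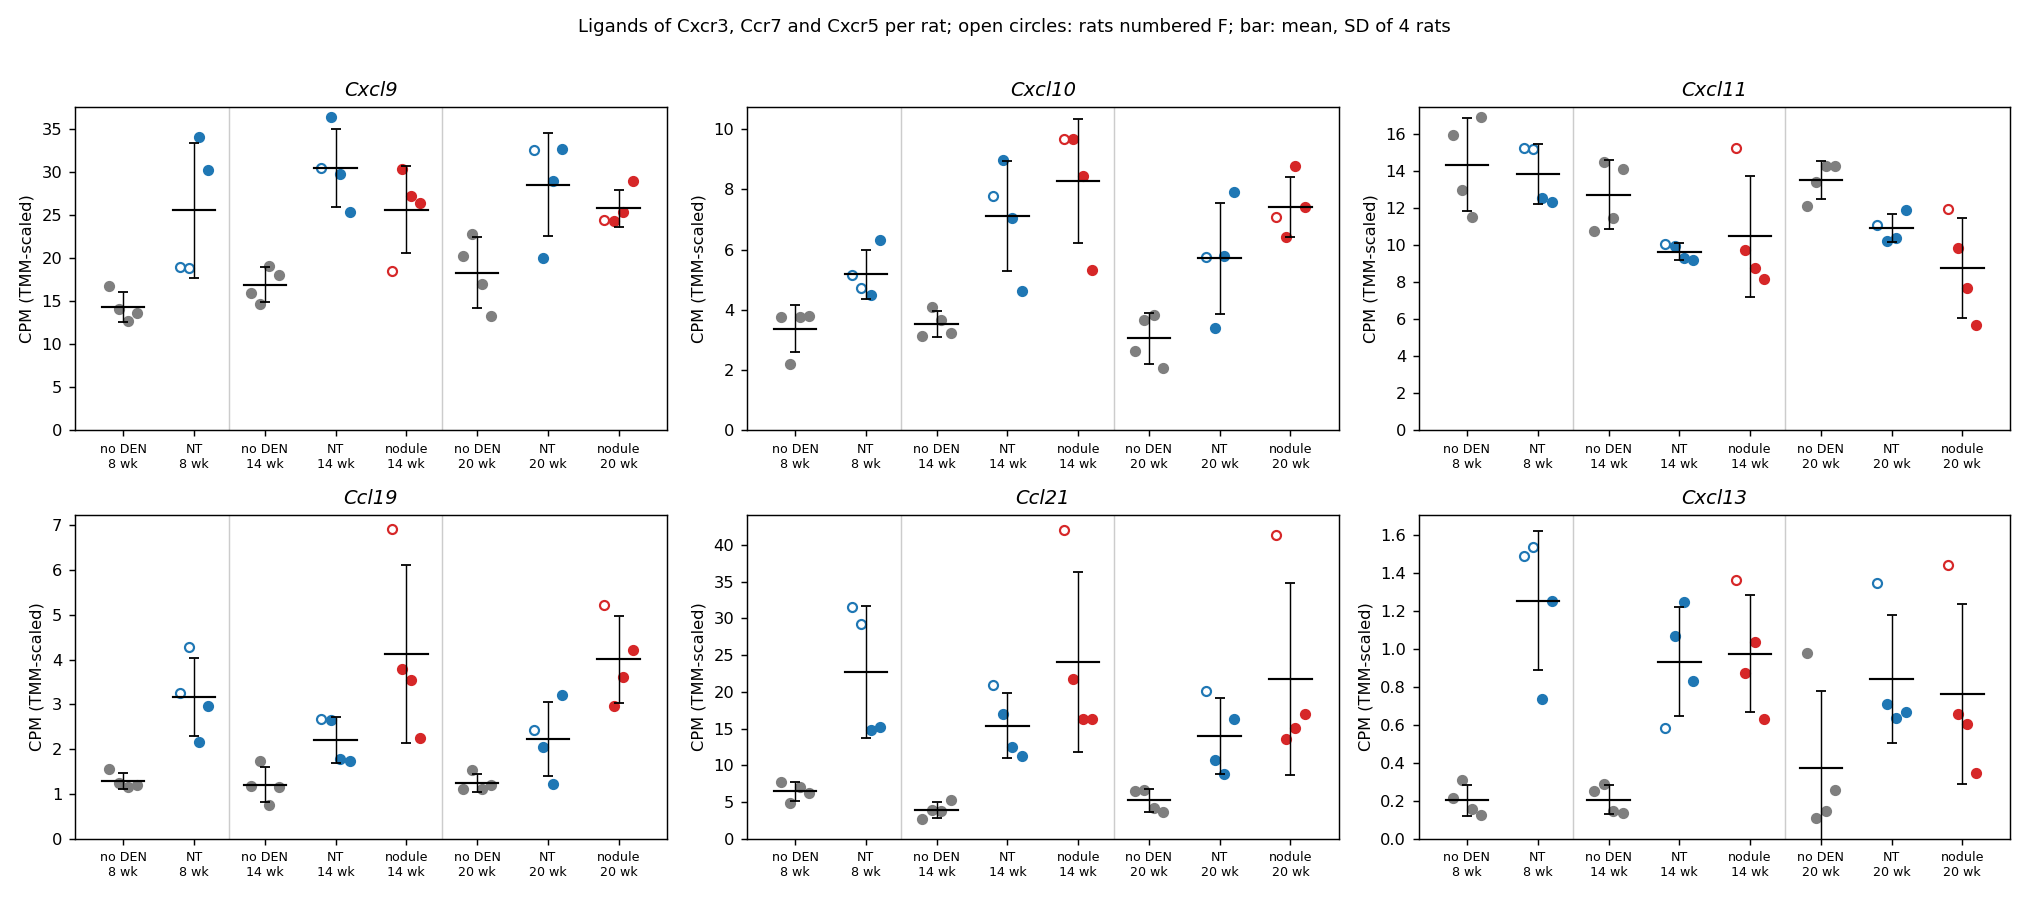
CPM of Cxcl9, Cxcl10, Cxcl11, Ccl19, Ccl21 and Cxcl13 in each rat (circles) of the 8 groups, with the mean and SD of 4 rats as bars and rats numbered F as open circles. Cxcl11 is the one of the 6 that averages lower with DEN, and the rats numbered F are the highest of their group for Ccl21 from 8 weeks on.

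Other lymphocyte chemokines were not called in these fits. Xcl1, a product of T and NK cells, had group means of 0.248 to 0.579 CPM, with a log2 fold change of 1.15 (SE 0.49, edgeR adjusted p = 0.103) in NT liver at 20 weeks, where it was called with all 8 groups in 1 fit (1.15, adjusted p = 0.0333). Ccl27, a skin chemokine, had means of 0.919 to 1.5 CPM, and in NT liver at 14 weeks it was called lower only without F06 (-0.69). Ccl22, made by dendritic cells, had means of 0.175 to 0.346 CPM and was tested against no DEN in nodules at 20 weeks alone (-0.12, adjusted p = 0.807).

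Cxcl1 attracts neutrophils through Cxcr2. At 14 weeks it had 2.23, 0.495, 0.945 and 0.994 CPM without DEN, 3.41, 3.45, 2.39 and 2.85 CPM in NT liver and 5.22, 2.91, 3.01 and 2.25 CPM in nodules. The rise was 1.37 (SE 0.35, edgeR adjusted p = 0.00718) in NT liver, a call lost with all 8 groups in 1 fit (1.34, adjusted p = 0.0629), and 1.48 (SE 0.44, adjusted p = 0.0206) in nodules, where the call was lost without H11 or H12 (1.39 and 1.38). At 8 weeks F10 had 5.04 CPM and the other 3 treated rats 0.734 to 1.04 CPM, and Cxcl1 was not called (1.56, SE 0.63, adjusted p = 0.0834), but was by DESeq2 (1.54, adjusted p = 0.0224) and without H17 (1.83). At 20 weeks F03 had 8.23 CPM in NT liver and 7.71 CPM in nodules, beside 1.88 to 3.25 CPM in the other treated rats. There the call in nodules appeared without the untreated rat H16, at 3.82 CPM (1.78 in place of 1.05). Cxcr2 had group means of 0.0708 to 0.401 CPM and did not pass the count filter against no DEN. At 14 weeks it was tested and called higher in NT liver and in nodules by DESeq2, with no count filter and with all 8 groups in 1 fit, and in NT liver also without any 1 of H09, H10, H11, H12 and H22. Cxcl2, Cxcl3 and Cxcl6, which also bind it, had at most 7 counts in any library (Cxcl6 was called in nodules at 20 weeks with no count filter), and similar copies may lose pairs in counting.

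Ackr2, an atypical receptor that clears inflammatory CC chemokines, was lower at 14 weeks, with 0.184, 0.187, 0.303 and 0.388 CPM in NT liver and 0.862, 0.495, 0.473 and 0.686 CPM without DEN. The fall was 1.23 (SE 0.34, edgeR adjusted p = 0.01). Libraries held 12 to 24 counts without DEN and 6 to 14 in NT liver, so it passed the count filter there mainly through the untreated rats. In NT liver it did not pass the count filter at 8 and 20 weeks, and was called lower at 8 weeks by DESeq2, with no filter and with all 8 groups in 1 fit, and at 20 weeks without H13. In nodules it fell by 1.18 (SE 0.40, adjusted p = 0.0303) at 20 weeks, a call lost without any 1 of H14, H15, H16, H25, H26 and H28 (-1.15 to -1.03, adjusted p 0.0609 to 0.0817) and with all 8 groups in 1 fit. At 14 weeks the nodules of F06 had 0.526 CPM and those of the other rats 0.0996 to 0.273 CPM, and the value of -1.21 (adjusted p = 0.0584) was -1.66 and called without F06. It was also called there with all rats kept, by DESeq2 (-1.21, adjusted p = 0.0389), with all 8 groups in 1 fit (adjusted p = 0.0218) and with nodule 2 alone (adjusted p = 0.028). The counts were 1 to 26 per library.

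The second question was whether nodules differed from the NT liver of the same rats. In the unpaired test 0 of 32 members at 14 weeks and 0 of 34 at 20 weeks were called, as were 0% of all genes tested by edgeR at both times. At an unadjusted p of at most 0.05 there were 2 and 7 members, beside 1348 of 11466 and 2767 of 11546 genes, so that neither count stands above all genes. DESeq2 called 0 and 5 members, beside 35 of 10049 and 902 of 12252 genes. The 5 were Ccl20, Cx3cl1, Cx3cr1, Cxcl12 and Cxcl16, and all 8 groups in 1 fit called 5 as well, with Ccl19 in place of Cx3cr1. NT liver and nodules of a rat deviate together, so the rat was also fitted as a block. With it 0 members (0% of all genes) were called at 14 weeks and 7 of 34 at 20 weeks, 6 higher (9.21% of all genes) and 1 lower (5.46%). Without H25, the unpaired test at 20 weeks called 1 member, Cxcl16 (0.81). Shares of all genes are not given here for this setting or for all 8 groups in 1 fit.

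Ccl20, which draws cells carrying Ccr6 and is made by inflamed epithelia, stood out by its low level outside nodules. Untreated rats had 0 counts in all 4 libraries at 8 weeks, 1 count in all at 14 weeks and 2 at 20 weeks. NT liver held 3, 20 and 24 counts at these times, and the 8 nodules of 14 and of 20 weeks held 75 and 99. At 20 weeks the CPM in NT liver were 0.0336, 0.0568, 0.0981 and 0.144, and in nodules 0.334, 0.342, 0.579 and 0.260, without overlap. All 8 nodules of 14 weeks and all 8 of 20 weeks had more Ccl20 than the NT liver of their rat. Both nodules of a rat are set against the same NT library, which held 0 counts in F06. Some pairs are close, such as 11 counts in NT liver and 13 in nodule 1 of H21. How many of all genes go 1 way in all 16 nodules was not counted, here or for Cxcl12 and Cxcl16. Against untreated liver the ratio of nodules at 20 weeks was 15.4 (95% exact counting interval 4.14 to 129). Both untreated counts came from H14, so that without this rat there is no ratio, and Ccl20 passed the count filter at 20 weeks only through the nodules. Against NT liver, where 16 of the 24 counts came from the deep library of H26, Ccl20 is 1 of the 6 members counted as higher with the rat as block, was called without the block by DESeq2 and with all 8 groups in 1 fit, and was not called by the unpaired edgeR test. At 14 weeks it was called higher against no DEN by DESeq2, with no count filter and with all 8 groups in 1 fit, in NT liver and in nodules, and in nodules also without any 1 of F06, H09, H10, H11 and H12. Its values are a description. Counting intervals cover counting error only, since amplified copies are not independent molecules. The upstream sequence of Ccl20 holds 2 matches to the NF-κB motif, in capitals, and is shown because all 16 nodules had more Ccl20 than the NT liver of their rat.
Ccl20 (chr9:91836909-91837158, plus strand): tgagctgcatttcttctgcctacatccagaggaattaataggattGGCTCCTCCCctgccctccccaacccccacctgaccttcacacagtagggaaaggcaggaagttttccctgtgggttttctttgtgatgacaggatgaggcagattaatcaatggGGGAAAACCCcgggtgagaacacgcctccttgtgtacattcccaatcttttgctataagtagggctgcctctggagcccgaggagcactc

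Cxcl16 was higher in 16 of 16 nodules than in the NT liver of their rat. At 20 weeks NT liver had 12.2, 8.41, 13 and 16.4 CPM in F03, H25, H26 and H28, and their nodules had 18.2 and 26, 19.2 and 12.8, 24.7 and 26.3, and 18.3 and 32.2 CPM. With the rat as block it rose by 0.83 (SE 0.09, edgeR adjusted p = 2.75e-05). Cx3cl1 rose by 0.88 (SE 0.18, adjusted p = 0.00519) and was higher in 6 of 8 nodules, with 9.84 CPM in nodule 2 of F03 as the highest and 1.73 CPM in nodule 2 of H25 as the lowest. Its receptor Cx3cr1 rose by 0.79 (SE 0.22, adjusted p = 0.0152), in 7 of 8 nodules. Ccl19 rose by 0.87 (SE 0.21, adjusted p = 0.0114) in 7 of 8 nodules, and Ccl2 by 0.75 (SE 0.24, adjusted p = 0.0325) in 8 of 8. Cxcl12 fell by 0.86 (SE 0.13, adjusted p = 0.00125), in 8 of 8 nodules, from 206 to 279 CPM in NT liver to 64.3 to 229 CPM in single nodules. At 14 weeks the same block gave 0.38 (SE 0.11) for Cxcl16 and -0.45 (SE 0.07) for Cxcl12, with adjusted p of 0.179 and 0.167. In the same fit at 20 weeks 4 of 5 cholangiocyte markers were called higher, 4 of 7 hepatocyte markers and 2 of 6 Kupffer cell markers lower, and 0 of 8 T cell markers either way. Of 10 macrophage and monocyte markers 3 were higher (Cd84, Gpnmb and Trem2, by 0.64, 0.62 and 1.26) and 1 lower (Cd14, -0.58), and 1 of 6 dendritic cell markers (Clec10a, 0.69) and 1 of 8 stellate cell markers (Col1a1, 1.29) were higher. These markers moved with the members, and their part in these differences was not tested.

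**Figure D5:**
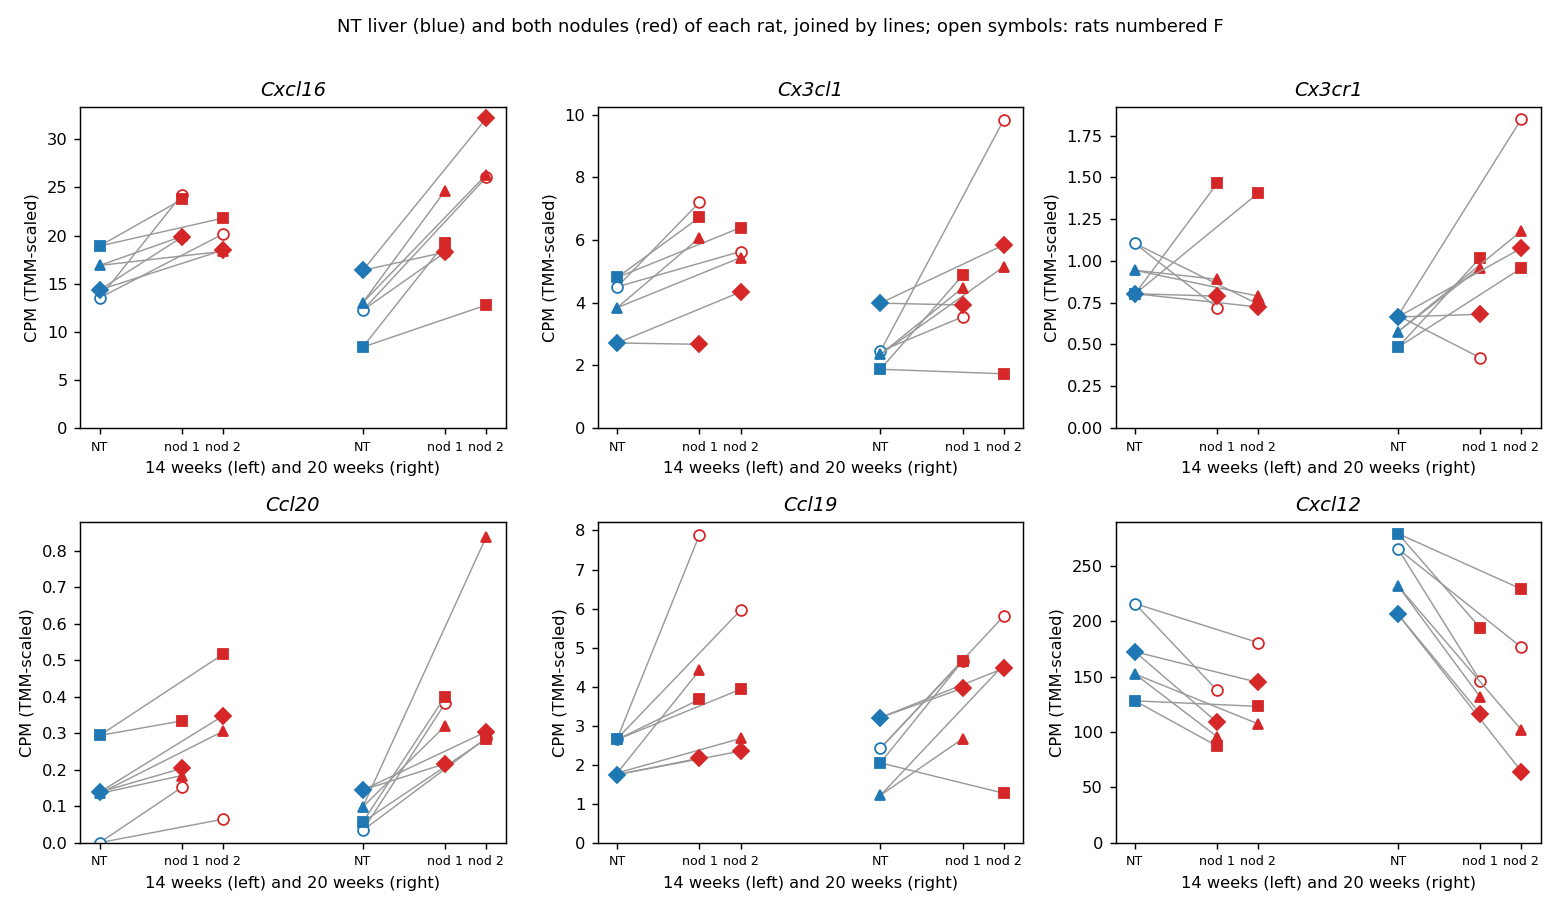
CPM of 6 members in NT liver (blue) and in nodule 1 and nodule 2 (red) of each DEN rat, joined by lines, at 14 weeks (left of each panel) and 20 weeks (right), with rats numbered F as open symbols. Cxcl16 and Ccl20 are higher and Cxcl12 is lower in all nodules than in the NT liver of their rat at both times, while Cx3cr1 goes up in 2 of 8 nodules at 14 weeks and in 7 of 8 at 20 weeks.

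For 18 members no comparison had enough counts. Ccl1, Ccl11, Ccl17, Ccl25, Ccl26, Ccl28, Cxcl2, Cxcl3, Cxcl6 and Cxcl17 among the ligands had at most 7 counts in any library. Ccr10, Ccr1l1, Ccr3, Ccr4 and Cxcr1 among the receptors had at most 7 as well, Ccr6 had 16, Ccr9 had 21 and Cxcr6 had 25, the last 3 all in the deep library of H26. The count filter therefore left differences in these genes untested at this depth. With no filter Cxcl6 was called in nodules, as given above.

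Genes that act downstream of the receptors were counted from a list of 32, of which 29 were found and tested. In NT liver 16, 18 and 16 were called higher at 8, 14 and 20 weeks, and in nodules 18 and 17, with 0 called lower in any of the 5 comparisons. Of all genes tested, 16.5%, 22.8% and 14.3% were called higher in NT liver and 23.9% and 23.6% in nodules. Examples at 8 weeks are Coro1a, an actin regulator of leukocytes (log2 fold change 1.47, SE 0.16, edgeR adjusted p = 9.22e-05), Rac2, a GTPase of blood cells (0.94, SE 0.16, adjusted p = 0.00161), and Rgs1, which turns off G proteins (1.54, SE 0.39, adjusted p = 0.0118). The arrestin Arrb2 rose by 0.84 (SE 0.12) at 8 weeks. Between 8 and 14 weeks the effect on Ptk2b, a kinase of migrating cells, grew by 0.85 (SE 0.22, adjusted p = 0.0264), and that on Arrb1 and Gnai2 grew by 1.18 and 0.36. These were 3 of 29 genes, near the 8.96% of all genes called by the adjusted p alone.

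Of 22 cytokines and regulators that induce chemokines 21 were found and 12 tested. In NT liver 4, 4 and 3 were higher and 0 lower, and in nodules 3 and 4 were higher and 2 and 1 lower. In nodules these counts are near the shares of all genes, 23.9% and 23.6% higher and 15.2% lower at both times, and in NT liver 16.5%, 22.8% and 14.3% of all genes were higher. Il1a rose in all 5 comparisons, from 0.68 to 1.10 on the log2 scale, and Nfkb2, an NF-κB subunit, rose by 0.67 (SE 0.09, edgeR adjusted p = 0.000119) in NT liver and 0.90 (SE 0.10) in nodules at 14 weeks. Myd88 fell by 0.54 (SE 0.14) in nodules at 14 weeks. Tnf was listed at 0 in every group, and Il6, Ifng and Il17a averaged at most 0.0371 CPM in a group.

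Of 11 chemokine-related genes whose symbols the rule does not cover, 10 were found and 8 or 9 tested. In NT liver 3, 3 and 0 were higher and 0, 1 and 0 lower, and in nodules 4 and 2 were higher and 1 and 1 lower. The shares of all genes called higher were 16.5%, 22.8% and 14.3% in NT liver and 23.9% and 23.6% in nodules, and those called lower 5.21%, 9.85% and 3.82%, and 15.2% at both times, so that several of these counts are near them. Cd74, the receptor of Mif and also a chain that escorts MHC class II, rose from a mean of 174 to 487 CPM at 8 weeks (log2 fold change 1.47, SE 0.22, edgeR adjusted p = 0.00102). Rarres2, the chemerin precursor made by the liver, fell by 0.77 (SE 0.13, adjusted p = 0.000648) in NT liver at 14 weeks. Xcr1, the receptor of Xcl1 on dendritic cells, rose by 1.2 (SE 0.20, adjusted p = 0.00116) at 8 weeks.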

How the data were processed

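RNA-seq of rat liver was analysed from the gene counts deposited by the authors, 1 table per library for 40 libraries. By the stated methods, strand-specific libraries were aligned to rn6 by the authors with STAR 2.7.1a, and HTSeq counted pairs lying fully within the exons of a gene, dropping pairs that matched several places. No normalization had been applied to these counts. Groups and rats were taken from the sample labels. For testing, both nodules from 1 rat were summed. Both groups of a comparison were fitted with edgeR 4.0.16 in R 4.3.3 (filterByExpr, TMM, robust quasi-likelihood F test, two-sided, Benjamini-Hochberg over all genes tested), and changes with time were tested as interactions. SE are the log2 fold change divided by the root of F. The test between groups was checked on counts simulated with a fixed dispersion, for NT liver at 8 weeks and nodules at 14 weeks against no DEN. Interactions and the block were not simulated, nor were changes in genes of low counts. NT liver and nodules come from the same animal, and their deviations from the group means correlated in every rat (r 0.385 to 0.589 at 14 weeks and 0.521 to 0.618 at 20 weeks, across genes), so the rat was also fitted as a block. Alternatives were DESeq2 1.42.0, RLE scaling, no count filter, leaving out each rat or all rats numbered F, all 8 groups in 1 fit, a stricter rule and each nodule alone. Members and gene lists were chosen with earlier results of these data known. Members were named with full values where called, except for a gene that is included in the counts and is not reported here. The 5 summary lines of each count table were left out.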

Additional observations from a re-analysis of the deposited data

Results flagged for a closer look

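Among 120 sets of 4 rats (called members, groups with a mean of at least 1 CPM), 7 had a rat far from the other 3 by Dixon's criterion, which chance alone gives in about 1 of 20 sets. In 4 of the 7 the rat was numbered F and the highest. Ccl21 in nodules at 20 weeks was 41.3 CPM in F03 and 13.6 to 17 CPM in the others. Ccl5 in nodules at 14 weeks was 10.6 CPM in F06 and 3.39 to 4.15 CPM in the others. Cxcl1 was 5.04 CPM in F10 in NT liver at 8 weeks (others 0.734 to 1.04) and 7.71 CPM in F03 in nodules at 20 weeks (others 2.36 to 3.25). The other 3 rats were the lowest of their set: Cxcl10 in untreated H06 at 8 weeks with 2.21 CPM (others 3.75 to 3.80), Cxcl16 in untreated H09 at 14 weeks with 4.24 CPM (others 5.07 to 5.15), and Cxcr4 in the nodules of H25 at 20 weeks with 2.5 CPM (others 3.37 to 3.48).

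The effect of DEN on NT liver differed between 8 and 14 weeks for Cx3cl1 (difference of log2 fold changes 1.21, edgeR adjusted p = 0.0485) and for Cxcl16 (0.76, adjusted p = 0.0209), by the interaction test. Without H21 neither was called, and Cx3cl1 kept its call only without F10, H11 or H23 among the 16 rats left out in turn.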

How the results depend on the processing

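Of 74 calls against no DEN (a member in a comparison), 58 were kept in every alternative other than the stricter rule in which the gene was tested, and 16 calls of 10 members were lost in at least 1. Without the rats numbered F 64 were kept, 9 were lost and 1 was not tested. No call of a member changed direction. The stricter rule called 8, 10 and 4 members in NT liver at 8, 14 and 20 weeks in place of 16, 16 and 11, by its own construction. Leaving out 1 rat gave 13 to 17, 16 to 17 and 7 to 14 members at these times, the lowest at 20 weeks without H16 or H28, 12 to 19 and 15 to 20 in nodules against no DEN at 14 and 20 weeks, and 0 in nodules against NT liver at 14 weeks. For nodules against NT liver at 20 weeks it gave 0 to 1 members in place of 0, DESeq2 gave 5, all groups in 1 fit gave 5, and the rat as replicate block gave 7. The block changed no other count of calls. For the change of the NT effect from 8 to 14 weeks, leaving out 1 rat gave 0 to 4 in place of 2, and no count filter gave 1. For that from 14 to 20 weeks it gave 0 to 1 in place of 0, DESeq2 gave 3, and leaving out the F rats gave 1. For the change of the nodule effect every setting gave 0. Beyond construction, the cause was not tested. Shares of all genes called are not given here for the alternatives other than DESeq2, the stricter rule and the block. These counts therefore do not tell a change of the members from one of all genes. A count of 30 per CPM limits genes under 1 CPM, such as Ccl20, Ackr2, Ccr1 and, in untreated liver, Cxcl13.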
